A study of Mus musculus with 12 samples.

Results

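Messenger RNA levels of 8 genes of the type I interferon response were followed in 12 mouse libraries. The genes were Isg15, Usp18, Irf7, Ifi27l2a, Ifitm3, Zbp1, Ifi208 and Mndal, taken by gene symbol from 2 tables that together hold 3186 genes. All 8 had a row in the microglia table of 2186 genes. In the Treg cell table of 1284 genes 7 had a row, and Mndal is not analysed here for the Treg cells. They were chosen because of their levels in these same comparisons, so their differences between groups are given as a description, with no test.

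The libraries formed 4 groups of 3. Regulatory T (Treg) cells, which restrain immune responses, came from the injured spinal cord and from the spleen of mice 14 days after spinal cord injury. Microglia, the macrophages that reside in brain and spinal cord, were primary cultures that were unstimulated or had been cultured together with Treg cells. Strain, age, genotype, the gate used for the Treg cells, the source of the co-cultured Treg cells and any pooling of animals are given in no source used here. The spleen group came from injured mice too, so no Treg cells of uninjured mice enter the comparison. Since no label states that the 3 libraries of a group were separate animals or cultures, each p-value reflects spread among these libraries, possibly technical. Levels are in FPKM, fragments scaled by transcript length and by library, so they can be compared between genes. Both tables list changed genes only, as selected by the authors, and genes missing from a table are not analysed here. The depth of the libraries is unknown.

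Type I interferons bind a receptor that activates a complex of transcription factors, STAT2 and IRF9 among them, which binds the interferon-stimulated response element (ISRE) in the promoters of many antiviral genes. The products act at different points. IRF7 is a transcription factor that amplifies interferon production, ISG15 is a ubiquitin-like protein attached to other proteins, and USP18 removes ISG15 and also blocks signalling at the receptor. IFITM3 is a membrane protein that restricts virus entry, IFI27L2A is a small interferon-induced membrane protein, and ZBP1 senses Z-form nucleic acids and can start cell death through RIPK3. Ifi208 and Mndal belong to the PYHIN family, interferon-inducible proteins of which some, such as AIM2, bind DNA. In microglia the interferon response is known from infection, injury and ageing.

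Promoter windows from RefSeq (GRCm38.p6, the build in the submitters' processing notes), reaching from 250 bases before to 50 bases after each annotated start, were found for 5 of the 8 genes. Usp18, Ifi27l2a and Zbp1 had no entry. The windows are shown because 4 of the 5 genes hold the core letters of the ISRE, searched on both strands. These letters are GAAA, 2 bases of any kind and GAAA. They are set in capitals, as is the CT that follows each match in Ifitm3.

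Isg15, chr4:156200769-156201068, minus strand: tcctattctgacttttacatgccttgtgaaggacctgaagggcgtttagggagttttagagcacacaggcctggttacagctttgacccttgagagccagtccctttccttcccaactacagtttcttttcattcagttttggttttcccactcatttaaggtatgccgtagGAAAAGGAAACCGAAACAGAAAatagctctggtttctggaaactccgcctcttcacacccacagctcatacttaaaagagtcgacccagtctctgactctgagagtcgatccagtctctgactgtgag
Ifitm3, chr7:141010695-141010994, minus strand: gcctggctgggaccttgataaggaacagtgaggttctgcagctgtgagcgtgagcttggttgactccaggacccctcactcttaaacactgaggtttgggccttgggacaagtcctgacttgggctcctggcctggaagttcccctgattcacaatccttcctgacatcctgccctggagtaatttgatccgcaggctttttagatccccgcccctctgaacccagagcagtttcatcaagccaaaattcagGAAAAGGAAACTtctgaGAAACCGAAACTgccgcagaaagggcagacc
Ifi208, chr1:173673415-173673714, plus strand: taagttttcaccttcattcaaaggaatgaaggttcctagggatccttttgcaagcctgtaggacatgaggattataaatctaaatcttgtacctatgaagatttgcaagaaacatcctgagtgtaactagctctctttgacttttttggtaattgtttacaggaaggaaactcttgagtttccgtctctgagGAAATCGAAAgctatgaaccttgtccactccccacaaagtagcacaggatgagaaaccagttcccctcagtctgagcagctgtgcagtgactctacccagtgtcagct
Mndal, chr1:173880138-173880437, minus strand: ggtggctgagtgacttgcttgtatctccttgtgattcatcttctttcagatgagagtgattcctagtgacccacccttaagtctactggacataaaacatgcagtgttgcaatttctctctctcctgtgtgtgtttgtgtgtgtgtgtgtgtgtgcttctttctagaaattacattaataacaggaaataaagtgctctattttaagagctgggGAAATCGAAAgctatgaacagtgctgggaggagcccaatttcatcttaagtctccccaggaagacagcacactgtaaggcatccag
Irf7, chr7:141266375-141266674, minus strand: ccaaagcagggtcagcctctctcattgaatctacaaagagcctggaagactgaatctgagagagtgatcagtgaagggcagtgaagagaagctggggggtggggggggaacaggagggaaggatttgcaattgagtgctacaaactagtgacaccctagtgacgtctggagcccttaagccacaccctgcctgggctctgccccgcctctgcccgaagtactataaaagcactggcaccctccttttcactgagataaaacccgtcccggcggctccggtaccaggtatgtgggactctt

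The core letters occur in 3.44% of the 32851 windows and in at least 1 window of 3.99% of the 27025 genes in the same table. In Isg15 there were 3 matches that overlap one another, at positions -78 to -57 with the annotated start at position 0. In Ifitm3 there were 2 matches, from position 2 to 11 and from 19 to 28, and both were followed by CT, a longer form that 0.271% of windows hold. Of the 5 genes with a window, Ifitm3 was the only one that held the gamma-activated site TTCNNNGAA (position 13 to 21, overlapping the longer form of both ISRE matches), a motif of 8.3% of windows. The Irf7 window held none of the 3 motifs. Ifi208 and Mndal each held 1 core match, at positions -58 to -49 and -36 to -27. A second window of Mndal, at a start further into the gene (chr1:173879909-173880208), held a core match on the other strand. These matches describe the letters in the windows and are not evidence of binding.

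The match in Ifi208 and Mndal lies in a run of 20 bases that both windows share, gGAAATCGAAAgctatgaac, printed with the core letters in capitals. The same run was found in windows of 3 other PYHIN genes, Ifi203, Ifi206 and Ifi213, and in no window of any other gene. Of the 10 other PYHIN genes on the list with a window, 7 held the core letters. Ifi208 (NCBI gene 100033459, chromosome 1, 173673628 to 173698393) and Mndal (gene 100040462, chromosome 1, 173857215 to 173880382) lie 183.6 kb apart by their lower ends. Ifitm3 (gene 66141, chromosome 7, 141009590 to 141010744) and Irf7 (gene 54123, chromosome 7, 141263183 to 141266499) lie on one chromosome with 252.4 kb between them. Isg15 (gene 100038882) is on chromosome 4 from 156199424 to 156200818, Usp18 (gene 24110) on chromosome 6 from 121245906 to 121270917, Zbp1 (gene 58203) on chromosome 2 from 173206612 to 173218959, and Ifi27l2a (gene 76933) on chromosome 12 from 103433873 to 103443680.

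In Treg cells all 7 genes with a row stood higher in the injured spinal cord than in the spleen, with no overlap between the libraries of the groups. Of all 1072 genes tested in the table, 59.0% were separated in that direction and 97.6% in either. All 7 were also called higher by limma, as were 61.0% of all genes tested (Benjamini-Hochberg adjusted p under 0.05, 99.6% in either direction), and nothing is read from this count because the genes were chosen on this comparison. All 7 passed the filter of a mean of at least 1 FPKM over the 6 libraries, Isg15 and Ifi208 only through the spinal cord libraries. Fold changes are differences of mean log2(FPKM + 1) with the SE of limma. This scale understates changes of low genes, and the median over all genes tested was 0.95. In bulk RNA, more cells of a type and more RNA per cell cannot be told apart.

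The transcription factor gene Irf7 stood at 3.62, 2.45 and 0.03 FPKM in spleen libraries 1, 2 and 3 and at 42.3, 31.4 and 33.8 FPKM in spinal cord libraries 1, 2 and 3. Spleen library 3 was far below the other two. The log2 fold change was 3.85 (SE 0.47), and 3.19 without spleen library 3.

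Spleen levels of Isg15 were 2.11, 0.07 and 0.07 FPKM, and cord levels 33.9, 28.9 and 34.6 FPKM. The spleen level was thus near 0 in all but library 1, while the cord libraries lay close together (coefficient of variation 9.6%). Its log2 fold change was 4.45 (SE 0.40).

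Usp18, whose product takes ISG15 off its targets, went from 3.60, 2.63 and 0.22 FPKM in spleen to 112, 53.3 and 112 FPKM in cord libraries. Cord library 2 lay well below the other cord libraries, with a coefficient of variation of 36.7% over the group. The log2 fold change was 5.02 (SE 0.46).

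Ifitm3 had the highest log2 fold change of all 1072 genes tested, 6.16 (SE 0.39) with a pseudocount of 1, from 0.09, 1.53 and 3.22 FPKM in the spleen to 172, 156 and 154 FPKM in the cord. With a pseudocount of 0.1 the monocyte marker Plac8 exceeded it, at 8.12 against 7.32. In Ifitm3 spleen library 3 was the highest of its group and library 1 the lowest, the reverse of the order in Irf7 and Usp18. Ifi27l2a reached the highest level of the set, 1403, 1461 and 2047 FPKM in the cord against 27.5, 43.4 and 40.2 FPKM in the spleen. Its log2 fold change of 5.43 (SE 0.20) was the third highest of the genes tested on that scale.

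Zbp1 and Ifi208 differed in their level in the spleen. Zbp1 went from 46.2, 57.3 and 29.0 FPKM in spleen to 254, 197 and 256 FPKM in cord libraries, a log2 fold change of 2.43 (SE 0.23). It was the gene of the set with the highest mean in the spleen, and its ratio of means was 5.34, against 99.7 for Ifitm3. Ifi208 was near 0 in spleen libraries, with 0.01, 0.03 and 0 FPKM, and held 3.77, 2.16 and 5.65 FPKM in cord libraries. Its log2 fold change was 2.20 (SE 0.31) with a pseudocount of 1 and 5.03 with a pseudocount of 0.1, and the authors' deposited table gives 8.31, above its value for Ifitm3 of 6.78.

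**Figure D1:**
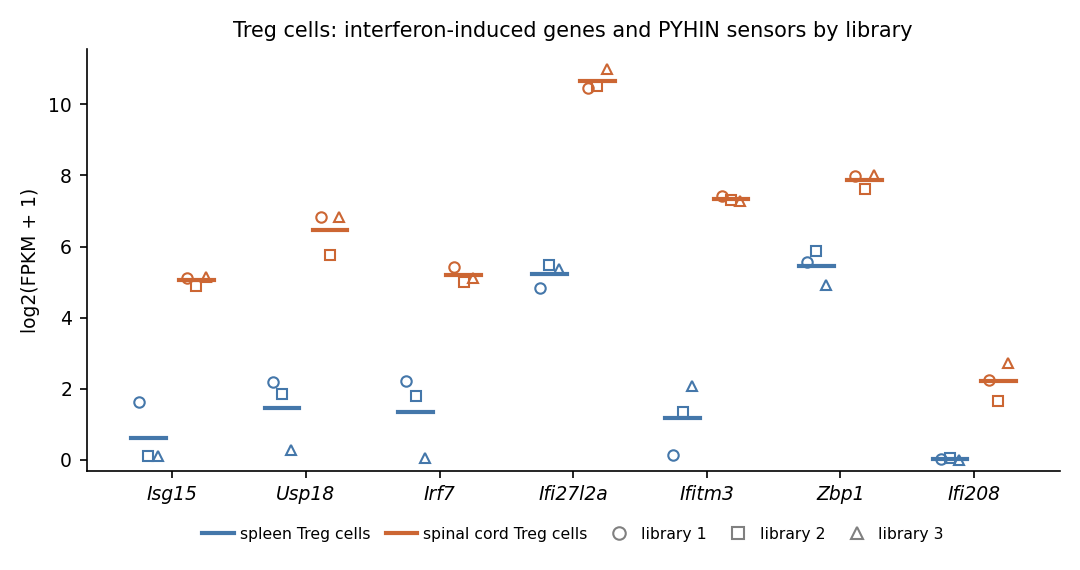
Levels of the 7 genes in Treg cells as log2(FPKM + 1), with 1 symbol per library (3 spleen in blue, 3 spinal cord in orange) and bars at the group means. The groups do not overlap in any of the 7 genes, and spleen library 3 (triangle) is lowest of its group in 4 of them and tied for lowest in Isg15.

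By level, Zbp1 and Ifi27l2a formed the top of the spleen group with overlapping libraries (means 44.1 and 37.1 FPKM). Usp18, Irf7, Ifitm3 and Isg15 followed at means of 2.15 to 0.75 FPKM, where each neighbour overlapped the next, and Ifi208 was last. In the cord the order was Ifi27l2a, Zbp1, Ifitm3, Usp18, Irf7, Isg15 and Ifi208, with overlap between Irf7 and Isg15 only. Of the 7 genes, spleen library 3 was the lowest of its group in 4, tied with library 2 for Isg15, and spinal cord library 2 was the lowest in 5. Summed over the 7 genes the spleen libraries held 72.7 to 107 FPKM and the cord libraries 1930 to 2643 FPKM, most of it Ifi27l2a.

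In the Treg libraries, marker genes of several other cell types differed between cord and spleen. Of 19 microglia and macrophage markers 6 had a row, with a summed level of 25.6 to 35.3 FPKM in the spleen and 81.8 to 99.1 FPKM in the cord, and C1qb was at 0 in all spleen libraries. Of 11 monocyte markers 3 had a row, with sums of 5.38 to 8.25 FPKM and 92.6 to 111 FPKM. Chil3 was at 0 in all spleen libraries and Plac8, at 68.4 to 79.1 FPKM in the cord, at 0 in 2 of them. The 2 of 13 neutrophil markers with a row summed to 4.22 to 9.77 FPKM and 28.4 to 83 FPKM, and Cd79b of the 12 B cell markers was at 0 in the spleen and at 2.66 to 5.38 FPKM in the cord. Of 12 markers of cytotoxic and gamma-delta T and NK cells 4 had a row. Their sums were 114 to 118 FPKM in the spleen and 42.2 to 68.9 FPKM in the cord, and Xcl1 made up most of each sum. Klrb1c and Prf1 were at 0 in all spleen libraries. In the cord Klrb1c was at 1.46, 0.02 and 0.17 FPKM and Prf1 at 2.15, 2.43 and 0.92 FPKM. Klrk1 went from 1.88, 0 and 1.70 FPKM in the spleen to 7.37, 4.54 and 11.6 FPKM in the cord. Of the 4 genes, 3 had a higher mean in the cord and Xcl1 a lower one. Sums of the 3 of 7 endothelial markers were 39.4 to 44.4 FPKM and 163 to 410 FPKM, most of it Ly6c1, which is not limited to endothelium, while Pecam1 overlapped between the groups and Kdr was at 0 in all but 1 library. Cnp, the only 1 of 8 oligodendrocyte markers with a row, was at 48.0 to 56.7 FPKM and 159 to 208 FPKM. With such a level in the spleen libraries, Cnp alone does not mark oligodendrocytes here. The part of such cells in the levels of the interferon-induced genes was not tested. The Treg label was checked on the 5 of 14 T cell and Treg markers with a row, Ctla4, Tnfrsf18, Nrp1, Tigit and Icos, which summed to 685 to 730 FPKM in the spleen and 1929 to 1975 FPKM in the cord. Nrp1 was lower and the other 4 higher in the cord by limma, though the call of Icos ended with equal totals and that of Tnfrsf18 after quantile normalization, and Foxp3 and Cd3e are not analysed here.

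In co-cultured microglia all 8 genes stood above the control, again with no overlap between the libraries, as in 53.4% of all 1529 genes tested. All 8 were called higher by limma, as were 53.4% of all genes tested, and nothing is read from that count. All 8 passed the filter, Ifi208 only through the co-culture libraries. The log2 fold changes ran from 0.81 to 3.71, beside a median of 0.74 over all genes tested.

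Zbp1 had the largest change of the set in microglia. It stood at 17.4, 18.3 and 12.3 FPKM in controls 1, 2 and 3 and at 219, 220 and 218 FPKM in co-cultures 1, 2 and 3, a log2 fold change of 3.71 (SE 0.13). The co-culture libraries varied by a coefficient of 0.5%, the least of any gene of the set in either table.

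Isg15 went from 15.9, 19.9 and 11.8 FPKM in the control to 103, 92.5 and 117 FPKM in co-culture, a log2 fold change of 2.66 (SE 0.18). Ifitm3, the gene of the set with the highest level in both microglia groups, went from 170, 176 and 159 FPKM to 821, 782 and 895 FPKM (log2 fold change 2.30, SE 0.06). Irf7 went from 31.6, 36.8 and 25.5 FPKM to 138, 114 and 124 FPKM (log2 fold change 1.98, SE 0.13). In all 3 genes control library 3 was the lowest of the controls and co-culture library 2 the lowest of the co-cultures.

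Ifi208 went from 0.99, 1.14 and 0.51 FPKM to 7.28, 5.69 and 6.59 FPKM. Its log2 fold change of 2.01 (SE 0.15) became 2.81 with a pseudocount of 0.1. Mndal, in the same PYHIN cluster, was at 16.8, 15.2 and 12.3 FPKM in the control and at 60.6, 55.8 and 54.1 FPKM in co-culture (log2 fold change 1.88, SE 0.11). The ratio of means was 7.41 for Ifi208 and 3.85 for Mndal. Ifi27l2a was at 46.6, 50.5 and 52.0 FPKM and then at 164, 151 and 175 FPKM (log2 fold change 1.70, SE 0.07). It was the gene of the set whose control library 3 was the highest of its group.

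Usp18 had the smallest change, from 7.51, 8.53 and 4.99 FPKM in the control to 12.6, 11.5 and 14.3 FPKM in co-culture. The groups did not overlap, but the gap between the highest control and the lowest co-culture library was small. The log2 fold change was 0.81 (SE 0.17), and with every library scaled to the same total over the table it was -0.06. For Usp18 the authors' deposited table gives a log2 fold change of 1.08, just past the value of 1 that every listed gene exceeds in size.

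**Figure D2:**
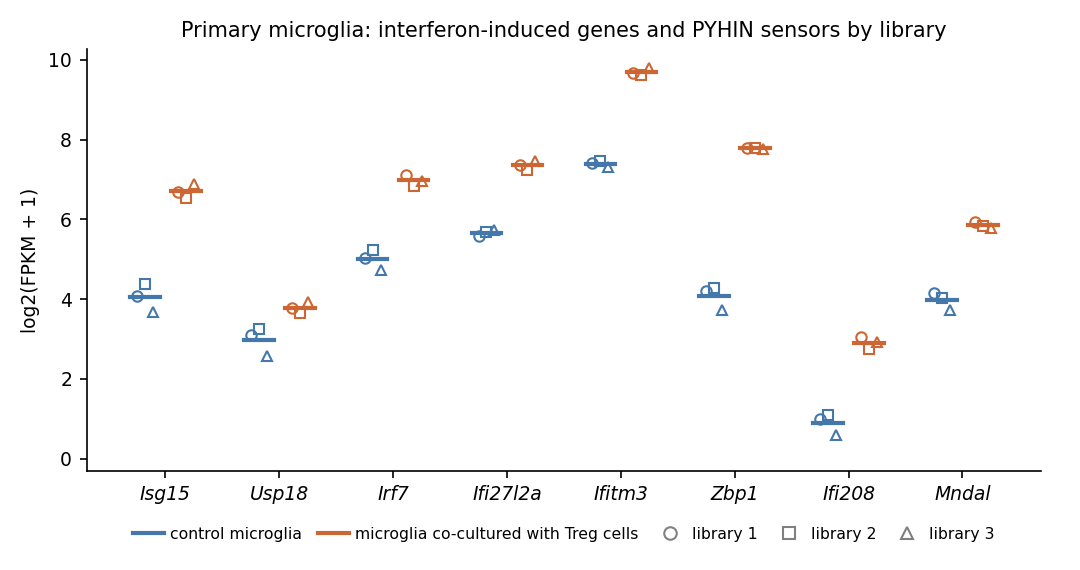
Levels of the 8 genes in primary microglia as log2(FPKM + 1), with 1 symbol per library (3 control in blue, 3 co-culture in orange) and bars at the group means. The gap between the groups is narrowest for Usp18 and widest for Zbp1.

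By level, the controls ranked Ifitm3, Ifi27l2a, Irf7, Zbp1, Isg15, Mndal, Usp18 and Ifi208, with overlapping libraries from Zbp1 to Isg15 and from Isg15 to Mndal. In co-culture Zbp1 came second after Ifitm3, followed by Ifi27l2a, Irf7, Isg15, Mndal, Usp18 and Ifi208, and the one overlap was between Irf7 and Isg15. Control library 3 was the lowest of its group in 7 of the 8 genes and co-culture library 2 in 6 of the 8. Summed over the 8 genes, controls held 279 to 326 FPKM and co-cultures 1433 to 1604 FPKM.

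In the microglia libraries 10 of the 19 microglia and macrophage markers had a row, with sums of 6008 to 6158 FPKM in the control and 12077 to 12253 FPKM in co-culture. By limma 7 of these 10 were higher in co-culture and Cx3cr1, Tmem119 and Cd14 were lower. The calls of Itgam and C1qc ended with equal totals and those of C1qa and C1qc after quantile normalization. The FPKM summed over all genes of the table also moved, from 59529 to 61068 in the control to 115884 to 117408 in co-culture. Of the 14 T cell and Treg markers 2 had a row, Lck and Ikzf2, with sums of 0.60 to 0.80 FPKM and 1.71 to 1.80 FPKM. The 2 of 12 markers of cytotoxic and gamma-delta T and NK cells summed to 0.03 to 0.19 FPKM and 1.54 to 2.07 FPKM. The 3 of 11 dendritic cell markers, Clec9a, Batf3 and Irf8, summed to 100 to 104 FPKM and 269 to 294 FPKM. Irf8 made up most of each sum. Clec9a went from 0.31, 0.15 and 0.15 FPKM in the control to 17.2, 19.8 and 17.4 FPKM in co-culture. Batf3 went from a mean of 1.86 FPKM to 12.8 FPKM. The part of carried-over cells in the co-culture values was not tested.

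The tables were normalized separately, so the sizes of the changes in the 2 cell types are set side by side without a test of their difference. As ratios of mean FPKM, Usp18 was 43-fold higher in cord Treg cells and 1.83-fold higher in co-cultured microglia. Ifi27l2a was 44.2-fold and 3.29-fold higher, Irf7 17.6-fold and 4.01-fold, and Isg15 43.3-fold and 6.56-fold. Zbp1 went the other way in size, 5.34-fold in Treg cells and 13.7-fold in microglia. The Treg ratios of Isg15, Irf7 and Usp18 are unstable. They rest on low spleen means, with coefficients of variation of 157%, 90.0% and 80.9% among the spleen libraries. The starting levels differed too, since Isg15 averaged 0.75 FPKM in the spleen Treg cells and 15.9 FPKM in control microglia, and Ifitm3 1.61 and 168 FPKM, levels set across separately normalized tables.

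Giving all libraries of a table an equal total shifted the log2 fold changes of all genes by -0.85 (median) for Treg cells and by -0.83 for microglia. As the tables hold selected genes only, this takes away part of any shared shift. In the Treg cells 39.1% of calls were then higher, against 61.2% as deposited, and in the microglia 42.4% against 53.4%. With equal totals all 7 genes stayed above 0 in the Treg cells, from 1.51 for Zbp1 to 5.49 for Ifitm3. In the microglia 7 of the 8 stayed above 0, from 0.75 for Ifi27l2a to 2.78 for Zbp1, and Usp18 did not. After quantile normalization the Usp18 value in microglia was 0.53.

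**Figure D3:**
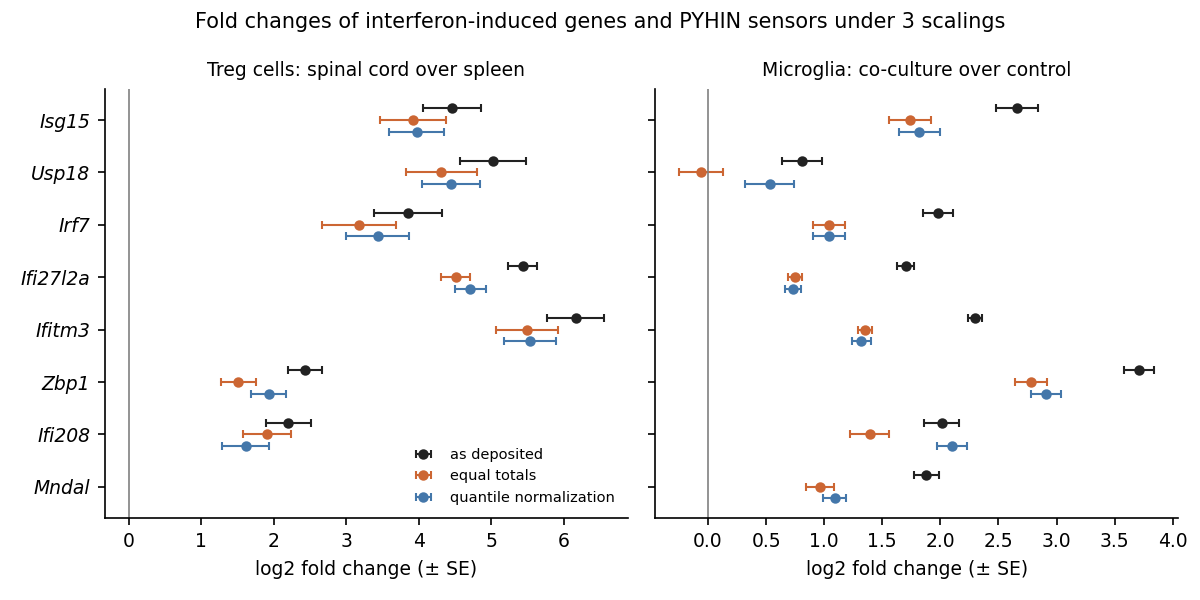
Log2 fold changes (dots) with the SE of limma (bars) for each gene, spinal cord over spleen Treg cells on the left and co-cultured over control microglia on the right, with the values as deposited, with equal totals and after quantile normalization. Every value lies above 0 except that of Usp18 in microglia with equal totals, -0.06, and Mndal has no Treg value.

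The other genes of the pathway were taken from 8 lists with 125 genes in all, the 8 genes above left out. In the Treg cells 55 had a row and 49 were tested, and 48 rose while 1 fell in the spinal cord (limma, Benjamini-Hochberg adjusted p under 0.05), beside 61.0% and 38.6% of all genes tested. Their median log2 fold change was 1.81, against 0.95 over all genes tested, and 15 of the 49 reached the filter only through 1 of the groups. With equal totals 33 were called higher and 1 lower, and Socs1 fell below 0. In the microglia 79 had a row and 76 were tested, of which 72 rose and 4 fell, beside 53.4% and 46.6% of all genes tested. The median was 1.38 against 0.74 over all genes. With equal totals 52 were called higher and 5 lower, and genes including Tyk2, Irf5, Oas1g, Eif2ak2, Znfx1, Cgas, Ifih1 and Tlr3 changed to below 0. These lists were drawn up with earlier results of these data known, and the authors selected the genes on these libraries, so the directions are not independent evidence. The counts of single lists below stand beside the same shares called higher, 61.0% of all genes tested in Treg cells and 53.4% in microglia.

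Among receptors and signal transducers, all 5 tested genes rose in each cell type, with 1 of the 5 below 0 in each under equal totals (Socs1 in Treg cells, Tyk2 in microglia). In Treg cells 3 of the 5 were then called, since Ifnar1, a receptor subunit, also lost its call (log2 fold change 0.66, limma adjusted p = 0.086). Stat2, a subunit of the factor that binds the ISRE, rose in cord Treg cells from 5.38, 4.78 and 6.40 FPKM to 42.9, 11.2 and 24.6 FPKM (limma adjusted p = 8.59e-04), with a wide spread among the cord libraries. Irf9, its DNA-binding partner, rose 2.95-fold and Socs3, an inhibitor of cytokine receptor signalling, 8.54-fold. In microglia the inhibitor genes Socs1 and Socs3 rose 69.9-fold and 33.4-fold. In the Treg cells Socs1 rose 1.89-fold as deposited, a call that ended with equal totals (log2 fold change -0.04).

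Of the interferon regulatory factors besides Irf7, all 4 tested rose in the Treg cells, 2 of them with equal totals as well. The call of Irf5, at 2.6-fold, ended there (log2 fold change 0.44, limma adjusted p = 0.104), as did that of Irf2bp2 (0.37, limma adjusted p = 0.467), which also ended after quantile normalization (limma adjusted p = 0.0857) and without spleen library 2 or cord library 2. All 4 tested rose in the microglia as deposited, but Irf5 was lower in co-culture with equal totals and after quantile normalization. Irf1, a target of interferon gamma signalling as well, rose from 26.7, 22.1 and 22.3 FPKM to 515, 499 and 501 FPKM in microglia (limma adjusted p = 9.67e-09). Irf2 and Irf8, the latter a factor of the myeloid lineage, rose 2.65-fold and 2.52-fold there.

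Genes that attach ISG15 rose beside Isg15 itself. Ube2l6, its conjugating enzyme, rose 4.06-fold in cord Treg cells and 2.47-fold in co-cultured microglia, and Herc6, its ligase in the mouse, 4.6-fold and 5.22-fold. Uba7, the activating enzyme, rose 2.58-fold in microglia. Isg20, an exonuclease on the same list that does not attach ISG15, fell in microglia from 3.68, 3.29 and 2.44 FPKM to 1.84, 0.79 and 1.48 FPKM (limma adjusted p = 0.00369).

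All 25 tested antiviral effector genes were called higher in cord Treg cells, and 16 with equal totals. Of the 25, 9 reached the filter only through the cord libraries and so had to differ, Xaf1, Oas3, Rtp4 and Samd9l among them. Xaf1, a promoter of apoptosis, went from 0.55, 0.52 and 0.98 FPKM to 38.7, 22.2 and 39.4 FPKM. Oas3, an enzyme activated by double-stranded RNA, went from 0.11, 1.12 and 0.06 FPKM in spleen to 27.8, 8.22 and 16.8 FPKM in cord libraries. Rtp4 was at 0.04, 0 and 0.57 FPKM in spleen and reached 17.5, 10.8 and 11.7 FPKM. In each of the 3 genes cord library 2 was the lowest of its group. Samd9l lost its call when any of 5 single libraries was left out (limma adjusted p up to 0.129). In the microglia all 34 tested rose as deposited, of which 23 passed with equal totals while Oas1g, Eif2ak2 and Znfx1 lay below 0. Of the 34, 2 reached the filter only through the co-culture libraries. Ifit2, an RNA-binding antiviral protein, rose 7.65-fold, Oasl1 10.4-fold and Phf11b 6.19-fold.

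The relatives of Ifitm3 and Ifi27l2a did not share one direction in microglia. Ifi27 rose in cord Treg cells from 13.6, 18.7 and 16.3 FPKM to 126, 134 and 164 FPKM (limma adjusted p = 2.18e-07). In microglia the same gene fell from 45.5, 49.9 and 49.6 FPKM to 12.5, 13.8 and 15.1 FPKM (limma adjusted p = 3.64e-07), also with equal totals and after quantile normalization. Ifi27l2a, its relative, was 3.29-fold higher in the same libraries. Ifi27l2b was listed at 0.04, 0 and 0.04 FPKM in spleen and 2.15, 2.20 and 3.60 FPKM in cord Treg cells, while in microglia, where it missed the filter, it was at 0.98, 2.17 and 1.55 FPKM in the control and 0.07, 0.09 and 0.07 FPKM in co-culture. Ifitm2 rose 4.85-fold in Treg cells and 2.23-fold in microglia, where its call ended after quantile normalization (log2 fold change 0.03), and Ifitm1 rose 2.83-fold in microglia. Ifitm10 fell there by 1.08 on the log2 scale. The IFITM and IFI27 genes have close relatives, and no source used here states how reads matching several copies were assigned.

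**Figure D4:**
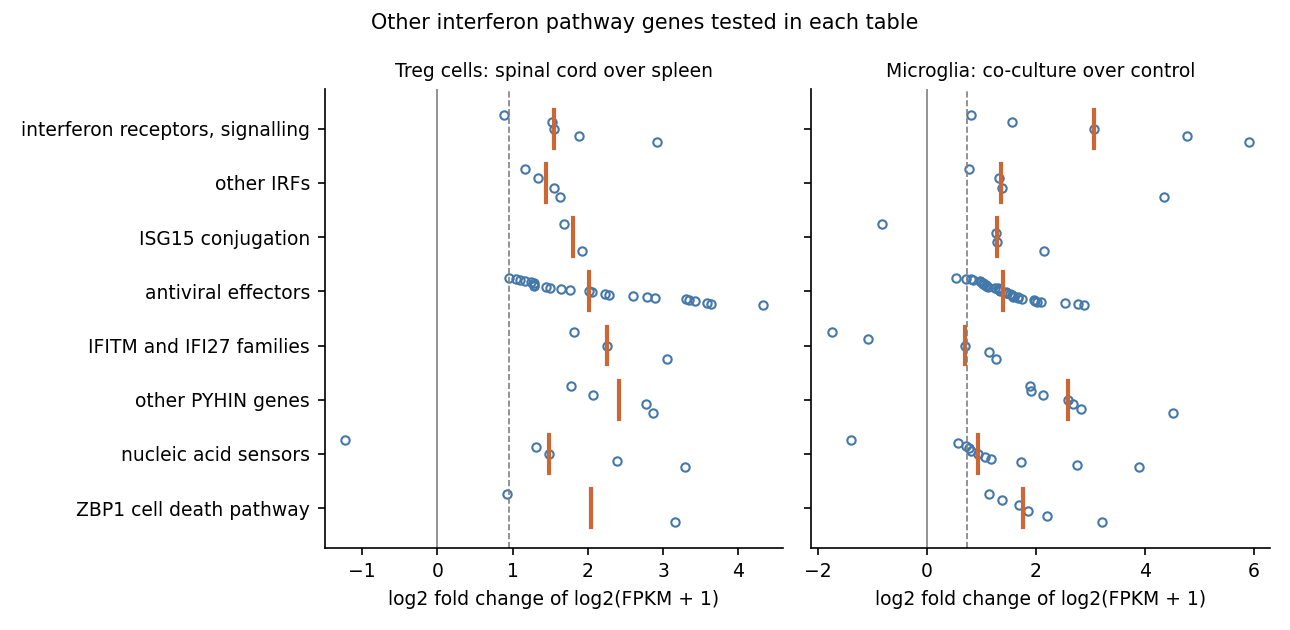
Log2 fold changes of the other interferon pathway genes tested, 1 circle per gene and 1 row per list, with the list median (orange bar), 0 (grey line) and the median of all genes tested (dashed line, 0.95 in Treg cells on the left and 0.74 in microglia on the right). Below 0 lie 1 circle on the left and 4 on the right.

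The PYHIN genes form a cluster on chromosome 1. The 13 listed genes with a RefSeq entry lie between 173349547 and 174031755 (GRCm38.p6), a stretch of 682 kb. In the Treg cells 6 of the 13 had a row and in the microglia 10, with 5 in both tables. Aim2 and Ifi202b had a row in neither table. Besides Ifi208 and Mndal, all 7 genes tested in microglia rose (limma, adjusted p under 0.05), under either of the other scalings too, and Ifi214 missed the filter there. In the Treg cells 4 others passed the filter, each only through the cord libraries, so that a difference was fixed by the filter and their values are given as a description. Ifi207, listed at 0 in all spleen libraries, missed it with cord values of 0.55, 0 and 0.58 FPKM.

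Ifi206 went from 0, 0.03 and 0 FPKM in spleen to 9.79, 4.27 and 5.94 FPKM in cord libraries. Ifi209 was at 0.52, 0.34 and 0 FPKM and then at 6.47, 7.60 and 8.96 FPKM, and Ifi214, listed at 0 in all 3 spleen libraries, reached 1.71, 2.87 and 6.02 FPKM in the cord. None of these genes passed 1 FPKM in any spleen library. In microglia Ifi205 showed the largest rise of the family, 32.4-fold, from 2.54, 2.28 and 2.09 FPKM to 82.5, 71.5 and 69.8 FPKM (limma adjusted p = 1.32e-08). Ifi211 rose 7.19-fold and Ifi206 7.52-fold. Ifi204 had the highest level of the family in microglia, 74.5, 77.1 and 52.2 FPKM in the control and 260, 253 and 244 FPKM in co-culture. Control library 3 was again the lowest of its group in each of these 4 genes. The PYHIN genes are close copies of one another, so reads shared between them make single values uncertain.

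**Figure D5:**
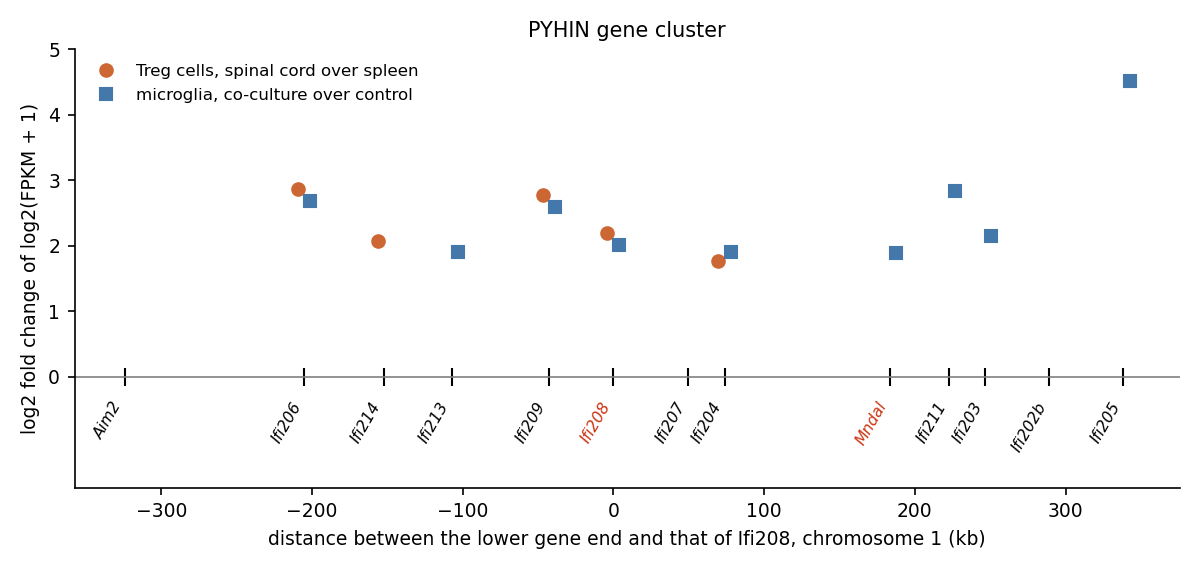
Log2 fold changes of the PYHIN genes tested, plotted at the distance of each gene's lower end from that of Ifi208 along chromosome 1 in kb, for Treg cells (circles) and microglia (squares), with symbols set slightly to either side of the gene's tick. All plotted values lie between 1.77 and 4.51, and ticks without a symbol mark genes that are not analysed here or missed the filter.

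Among nucleic acid sensors and their adaptors, 4 of 5 tested rose and 1 fell in the Treg cells. With equal totals 3 were called higher, and the call of Trex1, a DNA exonuclease, ended (log2 fold change 0.38, limma adjusted p = 0.117). Ddx58, the RNA sensor RIG-I, rose 9.22-fold and Samhd1, a phosphohydrolase of nucleotides, 2.82-fold. Dhx58, a relative of RIG-I, went from 1.08, 0.04 and 0 FPKM to 12.1, 7.22 and 17.7 FPKM. Dhx58 is in both counts of genes called higher. It reached the filter only through the cord libraries, so that a difference was fixed by the filter. Tlr7, an endosomal RNA receptor, fell from 6.64 to 2.13 FPKM on average (limma adjusted p = 0.00486). In the microglia 10 of 11 rose and Tlr7 fell again, but with equal totals only 4 of the 11 were called higher, and after quantile normalization 7. Genes including Cgas, Ifih1 and Tlr3 lay below 0 with equal totals. Samhd1 rose 15-fold there, Dhx58 3.48-fold and Sting1, the adaptor of the cytosolic DNA sensor, 7.13-fold.

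The genes of the cell death pathway that ZBP1 can engage rose with Zbp1 in microglia, 6 of 6 tested, beside 53.4% of all genes tested. They were also called higher with equal totals and after quantile normalization. Ripk3, its kinase partner, went from 7.13, 6.76 and 6.74 FPKM to 34.6, 34.3 and 37.3 FPKM (limma adjusted p = 3.39e-08). Mlkl, which breaches the membrane, rose 11.4-fold and Pycard, an inflammasome adaptor, 3.78-fold. In the Treg cells 2 genes were tested and rose as deposited. Gsdmd, a pore-forming protein, rose from 4.24, 4.17 and 3.10 FPKM to 44.4, 39.1 and 42.9 FPKM (limma adjusted p = 7.77e-07), while the call of Mlkl ended with equal totals (log2 fold change 0.03, limma adjusted p = 0.962).

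How far the genes of the set varied together within groups was described by Pearson r of the deviations of log2(FPKM + 1) from the group means over 6 libraries, which share library and scaling. The median r over pairs of genes was 0.78 in microglia and 0.14 in Treg cells. In microglia Usp18 (r = 0.97) and Isg15 (r = 0.96) followed the mean of the others most closely and Ifi27l2a (r = -0.07) least. In Treg cells Usp18 (r = 0.79) and Zbp1 (r = 0.78) followed it and Ifitm3 ran against it (r = -0.62). Outside the set, the genes whose deviations were most like the mean of the set were Xaf1, Uba7, Phf11d, Colec12 and Parp12 in microglia, with r from 0.965 to 0.990 among 1122 genes. In Treg cells they were Nabp1, Esco2, Fam110a, Lyar and Cdc42ep4, with r from 0.955 to 0.986 among 938 genes. Over the uncentred levels, where the group difference sets most of the likeness, they were Gsdmd, Nabp1, Crem, B2m and Ms4a4b in Treg cells and Parp12, Uba7, Trex1, Naa25 and Parp9 in microglia.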

How the data were processed

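Levels were taken from the authors' deposited tables of FPKM, 1 per comparison, with 6 libraries each and 2 decimals, per the file headers. The tables also hold a log2 fold change and a Q value (an adjusted p-value) deposited by the authors, by steps that no source used here states. Per the submitters' processing notes, which give no roles, the tools and build were Bowtie2, RSEM 1.3.1, DESeq2 1.4.5 and GRCm38.p6. The microglia fold change has a header with a numerator found in no label, and was read as co-culture over control, the direction of the FPKM in all 2186 genes. Every gene had an absolute log2 fold change above 1 and a Q value under 0.05 in the deposited tables. Such a selection makes nearly every gene pass a test. FPKM gives no read numbers, so no counting interval is given.

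Groups and replicate numbers came from the sample titles. Genes with a mean of at least 1 FPKM were kept (1072 and 1529), transformed to log2(FPKM + 1) and fitted per table with limma 3.58.1 in R 4.3.3 (mean-variance trend, Benjamini-Hochberg adjustment over all genes kept), a fit tested on simulated data. Python 3.11.15, pandas 2.3.3, numpy 2.4.6 and matplotlib 3.10.9 did the rest. Members and lists were chosen with earlier results of these data known. Named by rule were all members, up to 3 genes per pathway list with the largest absolute log2 fold change and non-overlapping groups, and the 5 genes most like the members (higher group averaging 5 FPKM or more). Genes named beyond that rule (Socs1 in Treg cells, Irf5, Ifi27l2b and Ifi204 in microglia, Isg20, Ifitm10, Samd9l, Irf2bp2, Ifnar1, Ifi207, Trex1, Tlr7 and genes that changed sign) were chosen after their values were seen. Some genes that the rule gave are not reported here. Alternatives were equal totals, quantile normalization over the whole table, a pseudocount of 0.1, no filter, each library left out and the replicate number as a block.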

Additional observations from a re-analysis of the deposited data

How the results depend on the processing

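With equal totals 680 genes were called in the Treg table, 266 higher and 414 lower, against 1068 as deposited (654 and 414). For microglia 1268 were called, 537 higher and 731 lower, against 1529 (817 and 712). After quantile normalization 910 (496 and 414) and 1440 (723 and 717) were called. In microglia the lower calls thus include genes that were higher as deposited, Irf5 among them. The value of Usp18 in microglia reversed to -0.06 with equal totals, and the cause was not tested. A pseudocount of 0.1 moved 5 Treg values by over 1.5 times (linear scale), to 6.34 for Isg15, 5.89 for Usp18, 5.05 for Irf7, 7.32 for Ifitm3 and 5.03 for Ifi208. Leaving out single libraries gave 46 to 47 pathway genes called higher in Treg cells, where Samd9l and Irf2bp2 (without spleen library 2 or cord library 2) lost their calls, and 72 in microglia. Without the filter 1198 of 1284 and 2171 of 2186 genes were called. No label states whether the replicate numbers pair the libraries. Deviations of same-numbered libraries correlated at 0, -0.04 and -0.05 in Treg cells and at -0.04, 0.15 and 0.17 in microglia. Those of differently numbered libraries correlated at -0.01 to 0.06 and at -0.29 to 0.27. With 3 libraries per group these values cannot settle whether the libraries were paired. With the replicate number as a block 1064 and 1529 genes were called. Depth is unknown, so the counting error of values near 0 FPKM cannot be given.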
